A study of Mus musculus with 16 samples.

Results

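Sorafenib, a multikinase inhibitor given for advanced hepatocellular carcinoma, was compared with its vehicle DMSO after 7 days of culture, to describe the RNA of the cells that were still present after a week of drug. The comparison rests on 8 of the 16 RNA-seq libraries of the study, 4 with sorafenib for 7 days and 4 with DMSO for 7 days. All of them came from p53-/-; Myc hepatoblasts, a mouse liver progenitor line that lacks the tumor suppressor p53, overexpresses the oncogene Myc and forms tumors in nude mice, so that both groups carry both lesions. The other 8 libraries, sorafenib and DMSO for 48 hours, are used here to ask whether a change at 7 days differed from the earlier one. Cells were grown as a single line in medium with serum and given a single concentration of sorafenib, and the labels do not say whether the replicates were separate cultures, so the p-values measure the spread between these libraries, which may be technical. Genes with at least 10 counts in total over the 16 libraries were kept, 20444 of 40840. Levels are given as normalized counts, the count of a gene divided by the library's effective size relative to the other libraries of 7 days. A gene was called changed at a false discovery rate (FDR) under 0.05 by the quasi-likelihood test of edgeR, adjusted after Benjamini and Hochberg over all tested genes, and fold changes are on the log2 scale, sorafenib relative to DMSO, with their standard error (SE). A single number in parentheses after a gene, or after rose by or fell by, is this log2 fold change, and levels joined by ± are the mean and SD of 4 libraries, DMSO first. In a bulk sample, fewer cells of a type and less RNA per cell cannot be told apart, and neither cell number nor cell death was measured in these files.

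Sorafenib blocks RAF kinases and the receptors of VEGF and PDGF, and it also uncouples mitochondria. Cells that meet a shortage of amino acids, damaged mitochondria or misfolded protein phosphorylate the translation factor eIF2, and the transcription factor ATF4 then turns on amino acid transporters, tRNA synthetases and stress genes, a program called the integrated stress response. Sterol-regulated transcription by SREBP, interferon signalling through STAT factors, and the YAP and TEAD factors that follow cell shape are further programs whose target genes are well defined, and hand-written lists of such genes are used below.

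Total counts ran from 23279342 to 29654546 with DMSO and from 22302847 to 30828427 with sorafenib. Replicates lay close together, since 2 libraries of the same group differed by an SD of 0.10 to 0.16 in log2 ratio over the 10645 genes whose mean count reached 100. In 1 library, DMSO replicate 4, 3.04% of the counts fell on 2 genes of the ribosomal RNA locus, against 0.29 to 0.8% in the other libraries of 7 days. At 48 hours DMSO replicates 2 and 3 held 2.79 and 2.01%, against 0.426 to 0.834% in the other libraries, and they enter each change at 48 hours. An earlier report on these data describes lowered counts over part of the genome in sorafenib replicate 2 of 48 hours. This was not measured here, and each difference between the time points was also fitted with the 15 other libraries. The differences named below kept their direction and stayed past the threshold there, apart from Ifit3, whose values are given with it.

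Both genes that define the line were read in every library. Trp53, the gene of p53, had 2435, 2182, 2286 and 2191 normalized counts in the DMSO and 2975, 2675, 2654 and 2704 in the sorafenib libraries (0.27 ± 0.03), so that its transcript was counted in each library. Counts per gene do not show which part of it is deleted and cannot check the knockout. Myc had 15962, 16358, 15653 and 15389.8 with DMSO and 11502, 11169, 11153 and 10831 with sorafenib. It was lower in all sorafenib libraries, at -0.50 ± 0.03 (edgeR FDR 4e-23). The markers of the labelled cell type were checked as well, and they were mixed. Alb and Hnf4a were near absent, Afp and Epcam were low, and keratins and the hepatoblast genes Dlk1 and Gpc3 were present. Albumin (Alb), the main plasma protein of hepatocytes, had 1 count in the DMSO and 2 in the sorafenib libraries of 7 days, and Hnf4a, the central hepatocyte transcription factor, had 0 and 0. The fetal liver protein Afp had 10.1 ± 4.16 and 4.30 ± 2.93, and the epithelial surface protein Epcam 19.6 ± 3.07 and 2.98 ± 1.70. The keratins of simple epithelia were present, Krt8 at 146 ± 12.4 and 67.96 ± 2.06, Krt18 at 358 ± 28.4 and 189.8 ± 6.25, and Krt19 at 1557 ± 66.00 and 1088 ± 34.6 normalized counts, and all fell with sorafenib (log2 fold changes -1.10, -0.91 and -0.51). Dlk1, a surface marker of hepatoblasts, fell from 17914 ± 694 to 4305 ± 105, and the oncofetal glypican Gpc3 from 9493 ± 188 to 4539 ± 98.6. The mesothelial genes Wt1 and Upk3b, which were picked once their values were known, had 10384 ± 156 and 17730.4 ± 291 normalized counts with DMSO and 3402 ± 86.3 and 1884 ± 35.8 with sorafenib.

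Markers of leukocytes, endothelium and erythroid cells were sparse, and those of fibroblasts and stellate cells were abundant. Of 12 leukocyte markers 5 passed the filter, and their summed level ran from 162 to 194 normalized counts with DMSO and from 105 to 126 with sorafenib. The pan-leukocyte gene Ptprc had 5 counts in all 16 libraries together. The 7 endothelial markers that passed, of 10, summed to 46.7 to 77.8 with DMSO and 222 to 253 with sorafenib, where Kdr, the VEGF receptor 2 gene, alone went from 33.4 ± 3.75 to 211 ± 18.3, and the endothelial cadherin Cdh5 had 3 counts in all. The 3 erythroid markers that passed, of 8, stayed below 64 in every library. Of 12 fibroblast and stellate cell markers 10 passed, and these summed to 98261 to 103196 with DMSO and 69119 to 70827 with sorafenib. Among them Col1a1, a chain of type I collagen, rose slightly from 45124 ± 924 to 55925 ± 718, while the matrix proteoglycan gene Dcn fell from 5227 ± 193 to 1063 ± 39.6. Whether these levels come from the hepatoblasts or from another cell was not tested.

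After 7 days, 6433 genes were higher and 6260 lower with sorafenib, 31.5% and 30.6% of those tested, or 62.1% in either direction. In 56.5% of the tested genes the 2 groups did not overlap. The spread between replicates was small enough to call small changes, since 43.6% of the called genes had an absolute log2 fold change under 0.5, and a call alone therefore says little about a gene. Large changes were frequent too. A log2 fold change of at least 2 was found in 1170 higher and one of −2 or less in 985 lower genes. The median over all tested genes was 0.02. Each gene list below is given by how many of its tested members were called in each direction, and many also by their median log2 fold change. Both are to be read against the shares and the median above, and no list was tested as a set. Abundant genes were called more often, 84.2% of those whose mean reached 100 normalized counts, with 39.7% higher and 44.5% lower, and lists of abundant genes such as the ribosomal proteins are to be read against these.

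**Figure D1:**
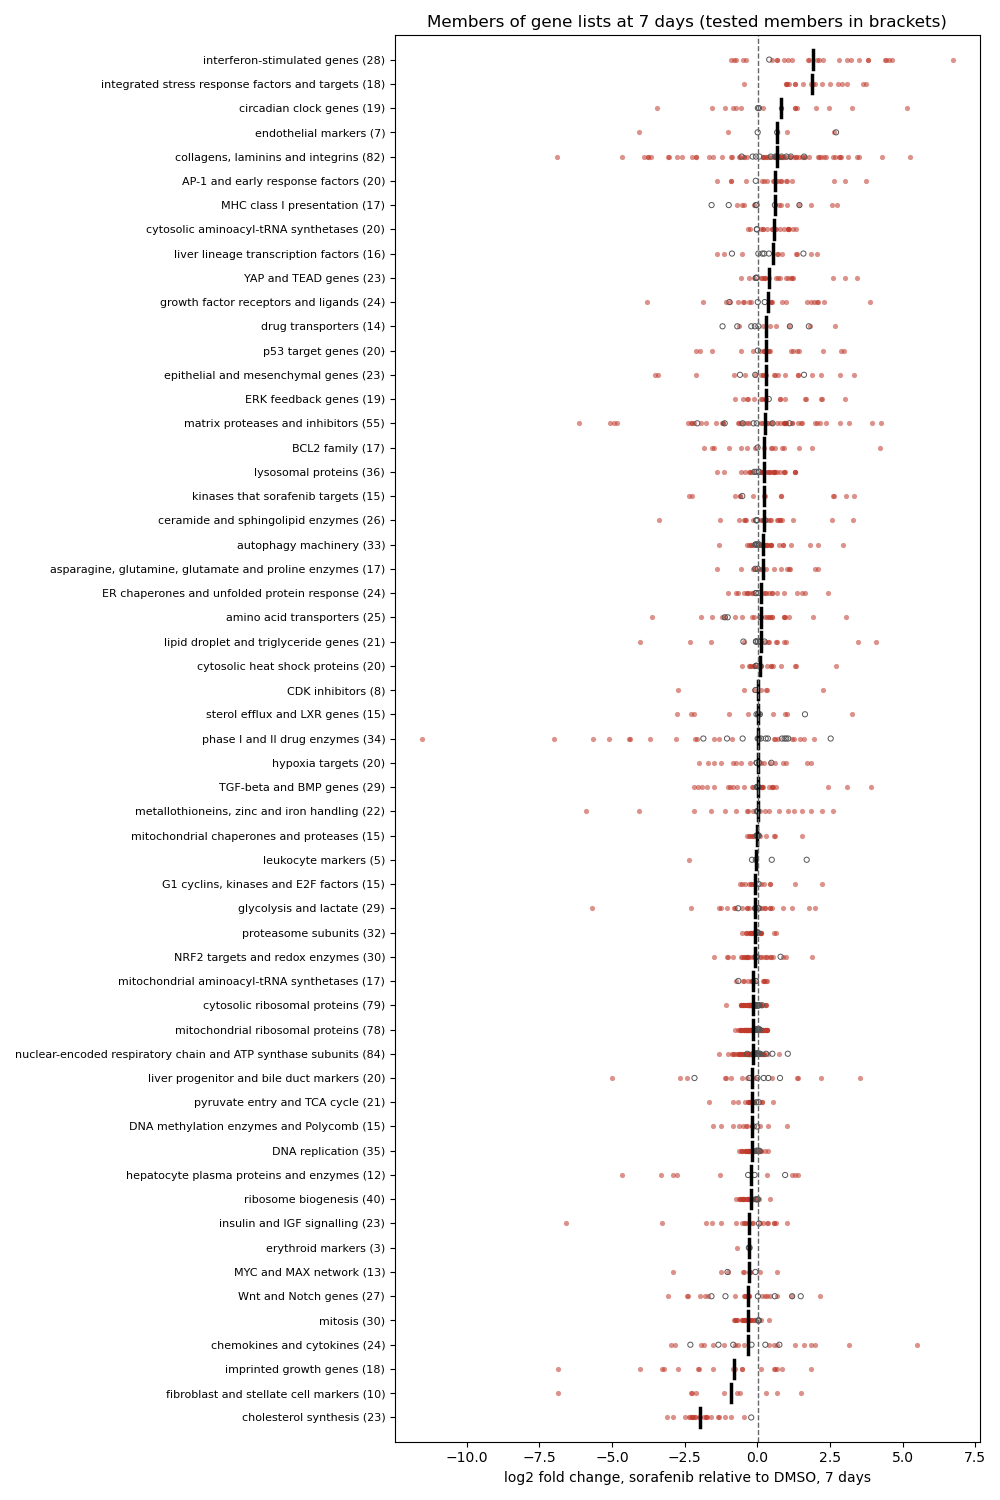
Log2 fold change, sorafenib relative to DMSO at 7 days, of every tested member (points) of 57 gene lists, with the median of each list as a black bar. Filled points are genes called at FDR under 0.05, open points are not called, and the dashed line is the median of all tested genes, 0.02. The integrated stress response (1.87) and interferon-stimulated genes (1.91, or 0.69 with at least 10 counts in each library) lie farthest to the right, and cholesterol synthesis (-1.98) farthest to the left.

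Of the 15 largest falls among genes whose mean reached 100 normalized counts, H19, an imprinted noncoding RNA of fetal liver, was the most abundant, with 160581, 140434, 147768 and 146271 normalized counts with DMSO and 1290.2, 1269.8, 1265 and 1321 with sorafenib. All sorafenib libraries lay far below all DMSO libraries, at a log2 fold change of -6.85 ± 0.04 (edgeR FDR 1.7e-63). Lin28a, the RNA-binding protein that holds back let-7 maturation in stem cells, had 386, 343, 337 and 383 with DMSO and 3.60, 2.61, 8.40 and 3.17 with sorafenib (-6.29 ± 0.17), again without overlap. The flavin monooxygenase Fmo2 had 412, 328, 397 and 363 with DMSO and no count in any sorafenib library, at least 498-fold lower when 3 counts over the group are taken as the floor, and the choline phosphodiesterase Enpp6, with 219, 208, 213 and 194 with DMSO and no count with sorafenib, was at least 277-fold lower. For 2 further genes a single read was left over the sorafenib libraries. Tm4sf5, a tetraspanin-like membrane protein, fell 1859-fold (95% counting interval 333 to 73483) and the growth factor Fgf8 809.7-fold (145 to 32022). Angptl7, a secreted angiopoietin-like protein, fell from 5457 ± 501 to 9.16 ± 4.85 normalized counts and Aldh1a2, which makes retinoic acid, from 3116 ± 67.7 to 25.9 ± 10.1. The others were Unc45b (-9.24), the melanocortin antagonist agouti (a, -8.73), Cd200 (323-fold lower on 3 reads, 95% counting interval 110.3 to 1570.1), the calcification inhibitor Mgp (-7.43), Plac1 (-7.18), the IGF-binding protein Igfbp5 (-6.59) and Shisal1 (-6.44). The response differed between the time points in 36.8% of all tested genes (21.3% with a lower response at 7 days), and in 42.8% with 15 libraries. The 15 genes above were chosen by their values at 7 days, which favours a larger fall at that time. The next count therefore only describes them. For 13 of these 15 genes the fall at 7 days was larger than at 48 hours by the test of the difference (edgeR FDR under 0.05). H19, for example, had a log2 fold change of -3.42 at 48 hours, and the difference was -3.43 (FDR 2.4e-16, and -3.37 from 15 libraries).

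The largest increases were genes with low counts in the DMSO libraries. Cdsn, an adhesion protein of the cornified skin layer, had 55.8, 34.9, 44.5 and 45.9 normalized counts with DMSO and 6589, 6287, 6227 and 6178 with sorafenib. Avil, an actin-binding protein of the villin family, had 26.2, 25.7, 25.9 and 23.95 and 3181, 3163, 2910.2 and 3022. Neither gene's groups came near each other, at log2 fold changes of 7.14 ± 0.05 and 6.91 ± 0.06 (edgeR FDR 2.1e-57 and 1.5e-53). Ppp1r16b, a regulatory subunit of protein phosphatase 1, rose from 3.41 ± 2.26 to 552 ± 18.6, the secreted carbonic anhydrase Car6 from 13.8 ± 3.97 to 1970.4 ± 25.9, and the teneurin Tenm4 from 47.6 ± 5.24 to 2920.0 ± 28.5. Cox6a2, the heart and muscle isoform of a cytochrome c oxidase subunit, rose from 6.16 ± 3.42 to 293 ± 19.3, and Taf7l, a germ cell relative of a TFIID subunit, from 4.32 ± 2.42 to 321 ± 8.71. The liver-secreted inter-alpha-trypsin inhibitor chain Itih2 (5.36) and the calcium channel Itpr2 (5.34), an IP3 receptor of hepatocytes, were among them as well. Tmem171 (6.33), Serpinb9b (5.98), Trim66 (5.83), Col4a4 (5.24) and the unnamed gene Gm19410 (5.15) were further members of the 15. In 7 of these 14 named genes the change differed between the time points by the test of the difference, and the response of Car6, for example, was smaller at 7 days than at 48 hours (difference -2.07, edgeR FDR 0.00011).

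**Figure D2:**
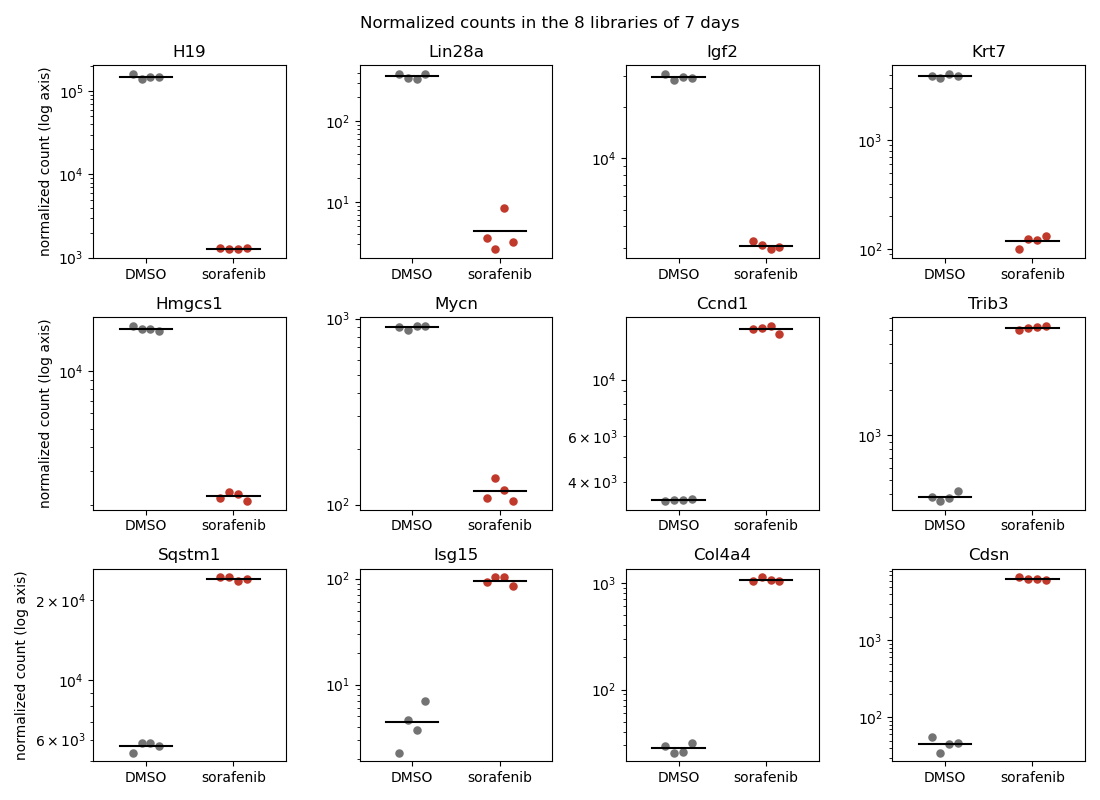
Normalized counts (log axis) of 12 genes in each DMSO (grey) and sorafenib (red) library of 7 days, with a bar at the mean of 4 libraries. In each panel the groups do not overlap, from H19 and Lin28a, which fell, to Trib3, Isg15 and Cdsn, which rose.

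Genes of cell division were lower, by small amounts. Of 35 DNA replication genes 26 were lower and 5 higher (median -0.20), and of 30 mitosis genes 25 were lower and 2 higher (median -0.32), against 30.6% lower among all genes and 44.5% among abundant ones. No mitosis gene fell by more than 0.80 on the log2 scale. Of 15 G1 cyclins, kinases and E2F factors 6 were higher and 8 lower. Ccnd1, the cyclin that carries growth signals to CDK4, had 3363, 3377, 3380.0 and 3417 normalized counts with DMSO and 15832, 15904, 16242 and 15129.8 with sorafenib. It was higher in every sorafenib library (2.22 ± 0.03, edgeR FDR 1.5e-49), and so was Ccnd2 (1.29), whereas Cdk4 itself (-0.42), the phosphatase Cdc25a (-0.54) and E2f2 (-0.60) fell. Among 8 CDK inhibitor genes 4 were higher and 3 lower. Cdkn1a, which encodes p21, rose from 40.02 ± 7.53 to 193 ± 7.93 (2.27 ± 0.12), and the imprinted inhibitor Cdkn1c, p57, fell from 2138 ± 135 to 319 ± 12.5 (-2.74 ± 0.05).

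Genes known as p53 targets changed although the line is labelled as lacking p53. Of 20, 14 were higher and 5 lower (median 0.30). Perp, a desmosome protein, had 155, 199, 182 and 169 with DMSO and 1265, 1365, 1287 and 1291 with sorafenib, and the death receptor Eda2r went from 34.1 ± 3.24 to 271 ± 10.9. Both were higher in every sorafenib library (2.88 and 2.98). The stress gene Sesn1 (-2.10), the antiproliferative Btg2 (-1.97) and the BH3-only gene Pmaip1 (-1.55), also called Noxa, fell. In the BCL2 family, which sets the threshold of mitochondrial cell death, 9 of 17 genes were higher and 7 lower, on both sides of that threshold. The death-promoting Hrk had 12.5, 13.8, 12.04 and 16.97 with DMSO and 252, 273, 245 and 267 with sorafenib (4.22 ± 0.14), and Bbc3, also called Puma, rose by 1.44. Bcl2, which protects, went from 385 ± 30.4 to 1402 ± 45.8 (1.86), while Bmf (-1.83), Bcl2l11 (-0.99) and the protective Bcl2l1 (-0.37) fell and Mcl1 was at -0.08.

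Most genes of the MYC network and of ribosome production were lower. Of 13 genes of the MYC and MAX network 9 were lower and 2 higher (median -0.30). The paralog Mycn had 906, 869, 915 and 908 with DMSO and 108, 138, 119.5 and 105 with sorafenib. No sorafenib library reached the lowest DMSO library (-2.92 ± 0.07), and at 48 hours its log2 fold change had been 0.24 (difference -3.16, edgeR FDR 3.3e-15). Of 40 ribosome biogenesis genes 34 were lower and 2 higher (median -0.23), led by the RNA polymerase I subunit Polr1b (-0.74), Nop16 (-0.64) and Bop1 (-0.59). At 48 hours their median was 0.10, and 33 of the 40 had a lower response at 7 days by the test of the difference, against 21.3% of all genes. Cytosolic ribosomal protein genes were lower in 54 of 79 and higher in 9 (median -0.14), the mitochondrial ones in 44 and 20 of 78 (median -0.14). At 48 hours 69 of the cytosolic ones were lower (median -0.26), and 24 had a higher and 2 a lower response at 7 days. Of the mitochondrial ones 3 had a higher and 29 a lower response at 7 days (median -0.02 at 48 hours). Among all genes 15.5% had a higher and 21.3% a lower response. With 15 libraries the counts were 41 and 4 for the cytosolic and 6 and 38 for the mitochondrial ones, whose median at 48 hours was then 0.05. Many ribosomal protein genes have processed copies in the genome, so single values are uncertain to that extent. Proteasome subunits were lower in 18 and higher in 7 of 32, with a median of -0.09.

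The integrated stress response was the list with the highest share of genes called higher, 17 of 18, with a median of 1.87. Its factor Atf4 had 8876, 9651, 9493 and 9500.0 normalized counts with DMSO and 18580.2, 18124, 18038 and 18833 with sorafenib (0.97 ± 0.03). Trib3, a pseudokinase that feeds back on ATF4, had 381, 362, 377 and 423 and 4998, 5151, 5269.5 and 5331, and Ddit3, the death-linked factor CHOP, had 417, 408, 418 and 438 and 3198, 3179, 3053 and 3166. All sorafenib libraries lay above all DMSO libraries for these genes (3.75 ± 0.04 and 2.91 ± 0.04, edgeR FDR 1.5e-52 and 3.4e-48). The eIF2 phosphatase subunit Ppp1r15a (3.09), the glutathione-degrading enzyme Chac1 (2.77), Nupr1 (2.51) and Sesn2 (2.21) rose as well, and the stress hormone Gdf15 rose from 2.31 ± 3.51 to 32.4 ± 4.13. The 1 member that fell was Cebpb (-0.46). For 11 of the 18 genes the response was lower at 7 days than at 48 hours by the test of the difference and for 3 it was higher. Fgf21, the hormone of mitochondrial stress, had a log2 fold change of 4.27 at 48 hours and 1.31 at 7 days (difference -2.96, edgeR FDR 1.1e-05), and Vegfa, an angiogenic factor that is also a hypoxia target, 0.43 and 1.84 (difference 1.40, FDR 2.8e-07).

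The promoters of Chac1 and Nupr1 are shown because these 2 members rose most among those that reached a mean of 20 normalized counts and held a match. The 250 bases before the RefSeq start site (GRCm38.p6, gene strand, 5′ to 3′) were searched on both strands for the C/EBP-ATF response element TGATGNAA, which stands in capitals here as its reverse complement. Chac1 lies on the + strand at chr2:119350992-119351241 and Nupr1 on the − strand at chr7:126625471-126625720.
Chac1: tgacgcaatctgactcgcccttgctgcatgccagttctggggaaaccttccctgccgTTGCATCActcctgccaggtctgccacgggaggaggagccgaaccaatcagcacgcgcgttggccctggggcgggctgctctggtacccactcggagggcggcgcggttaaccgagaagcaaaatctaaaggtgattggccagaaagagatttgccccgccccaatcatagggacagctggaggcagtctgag
Nupr1: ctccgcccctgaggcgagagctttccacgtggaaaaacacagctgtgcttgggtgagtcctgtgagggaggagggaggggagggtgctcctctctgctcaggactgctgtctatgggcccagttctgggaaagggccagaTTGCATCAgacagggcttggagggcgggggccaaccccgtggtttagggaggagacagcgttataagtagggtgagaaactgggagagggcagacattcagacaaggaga
The element was found in 4 of the 17 list members matched by symbol (23.5%), against 3.53% of the 27025 promoters in the table.

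Cytosolic tRNA synthetases were mostly higher, while amino acid transporters went both ways. Of 20 cytosolic aminoacyl-tRNA synthetases 16 were higher and 2 lower (median 0.55), led by Wars (1.33), Nars (1.21), Lars (1.10) and Cars (1.07), whereas their mitochondrial counterparts were higher in 5 and lower in 9 of 17 (median -0.14). The summed level of the mitochondrial list varied widely, from 22655 to 68792 normalized counts among the DMSO and from 22783 to 30459 among the sorafenib libraries. The cause of this spread was not tested. For 15 of the cytosolic enzymes the response was lower at 7 days than at 48 hours. Among 25 amino acid transporters 13 were higher and 9 lower. The cationic transporter Slc7a3 had 221, 184, 176 and 199.6 with DMSO and 1603, 1611, 1633 and 1564 with sorafenib (3.05 ± 0.05), and the glycine transporter Slc6a9 went from 975 ± 36.6 to 3651 ± 52.04. On the other side the glutamate transporter Slc1a2 fell from 88.9 ± 22.3 to 7.32 ± 4.21 and the glutamine transporter Slc38a3 from 307 ± 21.2 to 79.6 ± 5.54. Of the enzymes of asparagine, glutamine, glutamate and proline, 11 of 17 were higher and 4 lower. Asns, which makes asparagine, went from 4883 ± 71.8 to 10435 ± 64.3 (1.10 ± 0.02), the proline enzyme Pycr1 from 386 ± 37.9 to 1638 ± 37.6 and the branched-chain transaminase Bcat1 from 1961 ± 30.4 to 7681 ± 54.02, while Glul, glutamine synthetase, fell from 1855 ± 54.8 to 705 ± 52.5.

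Protein folding genes did not move as one. In the endoplasmic reticulum list 12 of 24 genes were higher and 9 lower (median 0.12). The oxidase Ero1a had 1991, 2006, 1894 and 1951 with DMSO and 10449, 10642, 10417 and 10334 with sorafenib. It was higher in each sorafenib library (2.42 ± 0.03), as were the sensors Atf6 (1.63) and Ern1 (1.36) and the degradation factor Herpud1 (1.54), but the chaperones Calr (-0.68) and Sdf2l1 (-1.01), Creld2 (-0.72) and the eIF2 kinase PERK, Eif2ak3 (-0.46), fell. Of 20 cytosolic heat shock genes 10 were higher and 7 lower, with Dnaja4 (2.7) and Hspb8 (1.33) at the top and Cryab (-0.55) at the bottom. In mitochondria the protease Lonp1 rose from 4106 ± 75.7 to 12024 ± 214 (1.55 ± 0.02) and the chaperone Hspa9 by 0.59, and of 15 mitochondrial chaperones and proteases 5 were higher and 6 lower.

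Lysosomal and autophagy genes were mostly higher. Of 36 lysosomal genes 24 were higher and 8 lower (median 0.22), and of 33 autophagy genes 21 and 6 (median 0.20). The receptor Sqstm1, p62, had 5364, 5848, 5826 and 5689 normalized counts with DMSO and 24369.5, 24381, 23596 and 24130.2 with sorafenib, and the receptor Optn 92.2, 80.9, 71.3 and 84.8 and 633, 652, 569 and 681. Both were higher in every sorafenib library (2.09 ± 0.03 and 2.95 ± 0.08). The hexosaminidase subunit Hexa (1.28) and the protease Ctsl (1.29) rose, whereas the factor Tfeb, a driver of lysosomal genes, fell from 848 ± 24.9 to 326 ± 18.6 and Gabarapl1 from 3658 ± 76.5 to 1448 ± 24.4. The E-box CACGTG was found in the 250 bases before the start of 10 of 26 matched lysosomal genes (38.5%), against 6.05% of all promoters. Redox genes went both ways, 11 higher and 15 lower of 30. The antioxidant element TGACNNNGC, on either strand, was in 6 of 24 matched promoters (25%) against 10.1%. This does not set the redox list apart, since other lists had higher shares. Among them were the lysosomal genes, with 9 of 26 (34.6%), and the MYC and MAX network, with 5 of 12 (41.7%). The sulfiredoxin Srxn1 (1.89), catalase Cat (0.98) and the thioredoxin reductase Txnrd1 (0.87) rose, and the glutathione transferases Gsta3 (-1.49), Gsta4 (-1.05) and Gstm1 (-1.02), members of families with close copies, fell. Of 22 genes of metal handling 10 were higher and 9 lower. The metallothioneins, which bind zinc and copper, rose, Mt1 from 138 ± 26.1 to 645 ± 13.03 and Mt2 from 36.2 ± 6.38 to 219 ± 19.6, while the zinc transporters Slc39a10 (-2.18), Slc39a4 (-4.09) and Slc30a1 (-1.59) and the metal reductase Steap4 (-5.90) fell. For Mt1 the change was larger at 7 days than at 48 hours by 1.43 (edgeR FDR 8.2e-08).

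Cholesterol synthesis was lower in 22 of 23 genes and higher in none, with a median of -1.98. Hmgcs1, the enzyme before HMG-CoA reductase, had 17189, 16559.8, 16546 and 16175 normalized counts with DMSO and 2171, 2327, 2265 and 2096 with sorafenib. The groups were far apart (-2.91 ± 0.03, edgeR FDR 2.8e-52), and the sterol carrier Stard4 (-3.10) and the isomerase Idi1 (-2.50) fell too. The 1 gene not called was Acat3, at 16.01 ± 1.81 and 14.1 ± 3.68, which is named because of that. For 18 of the 23 the response was lower at 7 days than at 48 hours, when the median was -1.25. The promoters of Hmgcs1 (chr13:119690101-119690350, + strand) and Idi1 (chr13:8885356-8885605, + strand), 250 bases before the start site in RefSeq GRCm38.p6, are shown as those of the members with the largest falls that held a CCAAT box, the site of the factor NF-Y, in capitals here on either strand.
Hmgcs1: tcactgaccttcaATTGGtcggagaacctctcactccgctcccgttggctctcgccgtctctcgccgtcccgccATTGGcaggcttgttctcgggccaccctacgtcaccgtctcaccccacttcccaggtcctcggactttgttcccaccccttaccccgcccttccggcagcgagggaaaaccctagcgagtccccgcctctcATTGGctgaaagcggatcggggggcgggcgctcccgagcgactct
Idi1: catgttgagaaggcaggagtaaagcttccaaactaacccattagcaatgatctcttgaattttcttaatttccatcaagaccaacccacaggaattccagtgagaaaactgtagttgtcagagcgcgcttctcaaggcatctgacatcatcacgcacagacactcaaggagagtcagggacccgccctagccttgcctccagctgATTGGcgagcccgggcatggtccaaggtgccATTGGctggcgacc
CCAAT occurred in 14 of 15 matched members (93.3%) against 34.5% of all promoters, and the sterol regulatory element TCACNCCAC in 1 (6.67%) against 1.04%. CCAAT was as well in 20 of 25 matched mitosis genes (80%). It was not limited to lists that fell. The endoplasmic reticulum list, which went both ways, held it in 18 of 21 (85.7%). Clock genes, more often higher than lower, held it in 11 of 16 (68.8%). The cell cycle element TTTGAA was in 36% of the mitosis genes and in 14.3% of DNA replication genes, and in 38.5% of DNA methylation and Polycomb genes. Its share was 16.3% of all promoters and 11.8% of those of tested genes.

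Other lipid genes changed in both directions. Apoe, the lipoprotein apolipoprotein and an LXR target, fell from 1626 ± 134 to 240.3 ± 5.07 (-2.75 ± 0.05), and the HDL receptor Scarb1 by 0.97, while the transporters Abca2 (0.53) and Abca5 (1.02) rose and Abca1 was at 0.02. In the sterol efflux list 4 genes of 15 were higher and 5 lower, a count of lower genes that became 3 with DESeq2 and when sorafenib replicate 2 or 3 was left out. In the triglyceride list 9 of 21 were higher and 4 lower. The acyltransferase Gpat3 rose from 15.9 ± 4.09 to 176 ± 31.8 and the phosphatidate phosphatase Lpin1 fell from 624 ± 39.8 to 125 ± 21.3. Of 26 ceramide and sphingolipid enzymes 15 were higher and 7 lower. The sphingomyelin synthase Sgms2 had 199, 248, 226 and 239 with DMSO and 2278, 2282, 2217 and 2246 with sorafenib (3.30 ± 0.04), a rise in every library, and the sphingosine kinase Sphk1 rose from 22.7 ± 3.28 to 134 ± 13.9. The ceramide synthase Cers4 fell from 711 ± 58.8 to 67.2 ± 8.77.

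Glycolysis and hypoxia genes differed between the time points. At 7 days 11 genes of glycolysis and lactate were higher and 14 lower of 29, and of 20 hypoxia targets 8 were higher and 8 lower. At 48 hours the median log2 fold changes had been -0.96 and -1.29, and at 7 days they were -0.07 and 0.02. By the test of the difference 18 and 15 of these genes had a higher response at 7 days, the same counts as from 15 libraries, against 15.5% of all genes. Bnip3, a mitophagy gene induced by hypoxia, had log2 fold changes of -3.24 at 48 hours and 0.61 at 7 days (difference 3.84, edgeR FDR 8.7e-13), and Pfkl, the liver phosphofructokinase, a gene picked once its values were known, -2.45 and -0.07 (difference 2.36, FDR 2.9e-12). At 7 days some enzymes rose and others fell. The hexokinase Hk1 had 543, 545, 581 and 538 normalized counts with DMSO and 2167, 2110.2, 2117 and 2259.6 with sorafenib and the phosphofructokinase Pfkp rose from 512 ± 19.7 to 1732 ± 42.5, while Aldoc, the brain aldolase, had 2009, 1557, 1729 and 1529 and 26.4, 43.5, 36.4 and 22.2 and the lactate dehydrogenase subunit Ldhb fell from 1178 ± 47.9 to 243 ± 12.3. The groups of Hk1 and of Aldoc did not overlap (1.97 ± 0.04 and -5.68 ± 0.10). In DMSO replicate 1 several of these genes stood above the other DMSO libraries, Pfkl at 2172 against 1545, 1583 and 1557 and Bnip3 at 286 against 171, 183 and 173, and its part in the result was not tested beyond leaving it out. Without that library 14 glycolysis genes were called lower and 7 hypoxia targets higher, with medians of -0.07 and -0.01.

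**Figure D3:**
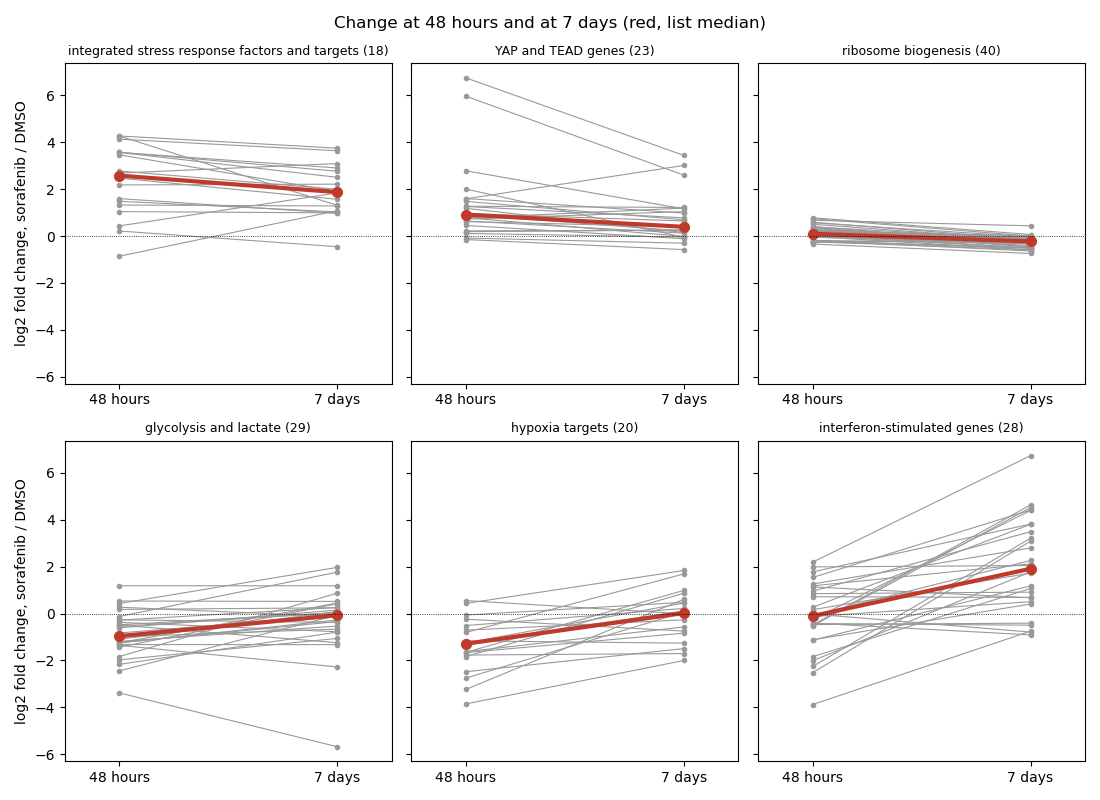
Log2 fold change of sorafenib against DMSO at 48 hours and at 7 days for the members (grey lines) of 6 gene lists, with the list medians in red. The medians of glycolysis and hypoxia genes were -0.96 and -1.29 at 48 hours and -0.07 and 0.02 at 7 days, and those of interferon-stimulated genes -0.10 and 1.91.

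Among 84 genes of the nucleus for parts of the respiratory complexes and of ATP synthase, 54 were lower and 10 higher (median -0.16). The complex III subunit Uqcrh fell most, from 3404 ± 51.3 to 1354 ± 24.5, and its neighbour in the complex Uqcrq rose from 2717 ± 102 to 4509 ± 83.8. The subunits encoded by mitochondrial DNA were not analysed here. Of 21 genes of pyruvate entry and the TCA cycle 16 were lower and 3 higher (median -0.18). The largest fall in this list was that of a cytosolic enzyme outside the cycle itself. This isocitrate dehydrogenase, Idh1, fell from 4059 ± 121 to 1276 ± 73.8 (-1.67 ± 0.03). Acly, also cytosolic, which turns citrate into acetyl-CoA, fell by 0.84.

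Liver lineage lists did not point one way, and the transcription factors were more often higher than lower. Of 22 liver transcription factors 16 passed the filter, with 7 higher and 3 lower (median 0.53). Sox9, a factor of bile duct and progenitor cells, had 363, 404, 363 and 364 with DMSO and 950.3, 1011, 1004 and 907 with sorafenib (1.37 ± 0.05), and Foxa2 (0.84), Klf5 (1.34) and the hepatocyte factor Cebpa (0.72) rose. The early endoderm factors Gata6, with 8443, 8271, 8415 and 8161 and 3199, 3194, 3069.8 and 3126, and Gata4 (-1.16) fell. Of 28 hepatocyte plasma proteins and enzymes only 12 passed, 5 lower and 4 higher (median -0.21). The iron carrier transferrin (Trf) fell from 1589 ± 57.9 to 214 ± 6.38 and complement C3 from 501 ± 38.04 to 73.7 ± 12.4. Among 20 progenitor and duct markers 9 were lower and 5 higher (median -0.17). The duct keratin Krt7 had 3914, 3747, 4054 and 3859.7 with DMSO and 99.7, 125, 121 and 131 with sorafenib, a fall of 5.02 on the log2 scale without overlap, whereas the chloride channel Cftr rose from 29.8 ± 4.78 to 343 ± 39.5. All 18 imprinted growth genes were called, 12 lower and 6 higher (median -0.80). Igf2, the fetal growth factor next to H19, had 30943, 28696, 29711 and 29274 and 3259, 3085, 2933 and 3020.2 (-3.27 ± 0.03), and Mest (-4.02), Zim1 (-3.23) and Peg3 (-1.54) fell while Phlda2 (1.84), Grb10 (0.84) and Meg3 (0.60) rose.

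Matrix genes changed in both directions, with large values in single families. Of 82 collagen, laminin, integrin and related genes 48 were higher and 23 lower (median 0.67). The basement membrane chains Col4a3 and Col4a4, whose genes lie head to head, rose together. Col4a4 had 29.6, 25.7, 25.9 and 31.9 normalized counts with DMSO and 1040.4, 1123, 1061 and 1037 with sorafenib, and Col4a3 18.2, 22.98, 10.2 and 17.97 and 334, 315, 362 and 342. No library of one group reached the other (5.24 ± 0.08 and 4.28 ± 0.13, edgeR FDR 1.2e-43 and 2.8e-31). The beaded-filament collagen VI went the other way. Col6a2 had 12326, 11076, 11182 and 11269 with DMSO and 839.7, 816, 837 and 853 with sorafenib, with all sorafenib libraries below all DMSO libraries (-3.78 ± 0.03). Col6a6 (138-fold lower on 3 reads, 95% counting interval 46.8 to 669.9), the laminin chain Lamc3 (-3.92) and Col8a2 (-3.78) fell as well, and the integrin subunits Itga4 (3.43) and Itgb7 (3.48) rose. Of 55 matrix proteases and inhibitors 28 were higher and 20 lower. The antiangiogenic serpin Serpinf1 had 183, 135, 131 and 144 with DMSO and 2841, 2763, 2772 and 2829.8 with sorafenib, the metalloproteinase Mmp19 rose from 28.2 ± 5.56 to 436 ± 26.7, and Adamts9 fell from 4981 ± 50.96 to 951 ± 19.4.

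**Figure D4:**
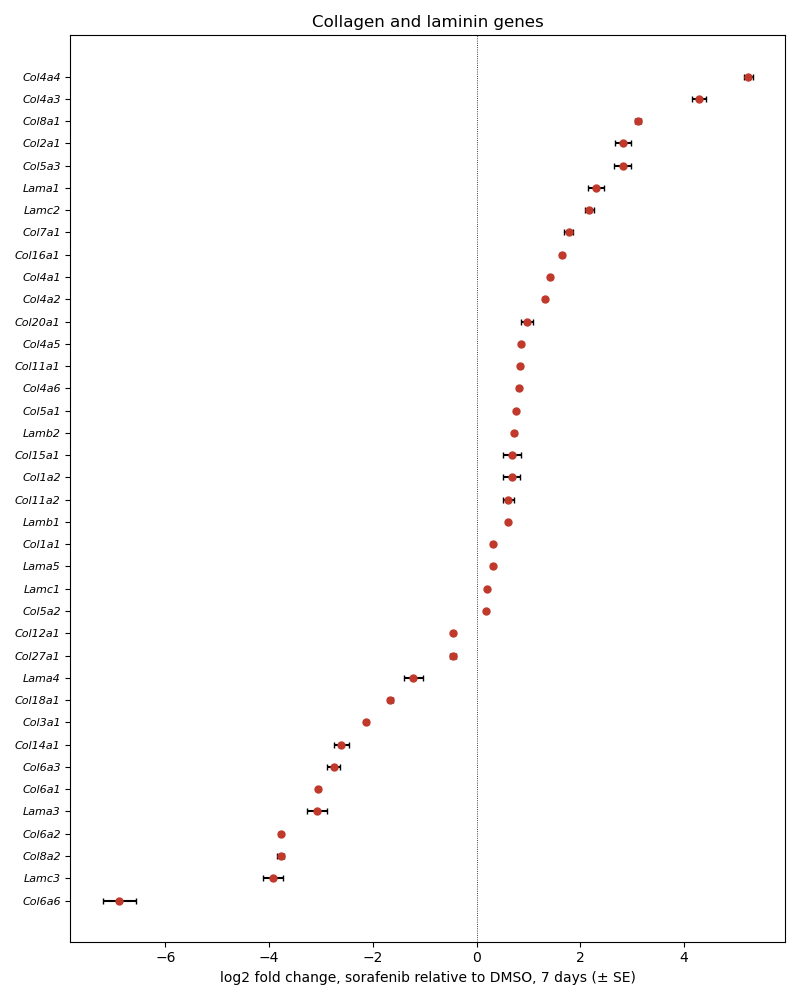
Log2 fold change at 7 days (± SE) of the tested collagen and laminin genes whose mean reached 20 normalized counts, in order. Col4a4 (5.24) and Col4a3 (4.28) head the plot and Col6a6, with 3 reads left with sorafenib, ends it.

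Epithelial and mesenchymal genes were higher in 14 and lower in 6 of 23. The mesenchymal factor Snai2 had 128, 119, 106 and 124 with DMSO and 1171, 1163, 1227 and 1172 with sorafenib (3.32 ± 0.06), higher in every library, and Zeb2 (2.20) and the contractile Cnn1 (1.88) rose. E-cadherin, Cdh1, rose too, from 80.1 ± 7.05 to 209.9 ± 13.01, and the tight junction claudin Cldn1 by 2.86, while the epithelial splicing factor Esrp2 fell from 899 ± 16.3 to 208 ± 21.97. YAP and TEAD genes were higher in 17 and lower in 3 of 23 (median 0.39). The matrix signal Ccn2 had 3747, 4767, 4395 and 4566 and 26659, 26345, 26370 and 26589, and Ankrd1, a muscle repeat protein and usual reporter of YAP, 1295, 1861, 1618 and 1718 and 17369, 17612, 17929.8 and 17819. Both stayed above DMSO in each library (2.60 ± 0.04 and 3.44 ± 0.05), but by less than at 48 hours, with differences of -3.37 and -3.31 (edgeR FDR 8.2e-16 and 2.4e-11), and 16 of the 23 had a lower response at 7 days. The TEAD site GGAATG was in 10 of 17 matched promoters (58.8%) against 12.6% of all.

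Feedback genes of the ERK pathway, which lies downstream of the RAF kinases that sorafenib blocks, were more often higher than lower, 13 and 5 of 19 (median 0.29). The phosphatase Dusp4 rose from 1468 ± 124 to 4599.5 ± 232 and Dusp6 from 2262 ± 182 to 3869 ± 78.7, while Dusp5 (-0.79), Spry4 (-0.34) and Spred1 (-0.35) fell. Of 20 AP-1 and early response factors 15 were higher and 4 lower (median 0.60). Klf4, a factor of epithelial differentiation and pluripotency, had 216, 279, 261 and 223 with DMSO and 3300.1, 3397, 3248 and 3239 with sorafenib, and the AP-1 subunit Fosl1 47.8, 48.7, 50.02 and 66.9 and 429, 427, 447 and 439. All sorafenib libraries were higher (3.74 ± 0.04 and 3.03 ± 0.10), and Egr1 fell from 2168 ± 170.3 to 834 ± 42.3. Among 15 genes of kinases that sorafenib blocks, 8 were higher and 6 lower. The collagen receptor Ddr2 had 1236, 1229, 1248 and 1211 and 10210.3, 10074, 10081 and 10018, and the VEGF receptor Flt1 182, 197, 199 and 217 and 2000.3, 1943, 2078 and 1939. Both groups were clearly separate (3.04 ± 0.03 and 3.32 ± 0.05), and Kdr (2.65) and Kit (0.80) rose, the PDGF receptor Pdgfra (-2.26) and Csf1r (-2.34) fell, and the kinase Braf rose by 0.26.

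Growth factor genes changed in both directions. Of 24 receptors and ligands 12 were higher and 9 lower (median 0.36). The EGF receptor ligands Ereg, with 21.6, 23.9, 18.5 and 16.97 and 293, 322, 292 and 273, Hbegf (1.96) and Tgfa (2.06) rose in all sorafenib libraries, whereas Egfr itself fell from 4655 ± 94.9 to 2410.3 ± 76.03 and Fgf1 (-3.81), Fgf2 (-1.87) and Fgfr2 (-1.07) fell. Insulin and IGF genes were lower in 14 and higher in 8 of 23 (median -0.29), with Igf1 (-1.57) and Igfbp3 (-1.77) down and Igfbp7 (1.00) and Irs1 (0.66) up. In the TGF-beta and BMP list 13 of 29 were higher and 12 lower. The activin chains Inhbb, with 50.1, 62.5, 63.9 and 70.9 and 827, 984, 1012 and 928, and Inhba (3.08) rose, as did Ltbp1 (2.44), and their antagonist Fst fell from 316 ± 19.3 to 84.2 ± 12.2. Wnt and Notch genes were lower in 14 and higher in 7 of 27, with the secreted Wnt antagonists Sfrp1 (-3.08) and Sfrp2 (-2.38) and the factor Lef1 (-1.71) among those that fell.

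Most of the interferon-stimulated genes that were kept were higher at 7 days, several of them from low levels. Of 32 written, 28 passed the filter, 22 were higher and 5 lower, with a median of 1.91 against -0.10 at 48 hours. A member near 0 with DMSO could pass the filter on low counts through the sorafenib libraries alone, so these counts describe the genes kept. Their summed level changed little, from 5234 to 5416 normalized counts in the DMSO and from 5774 to 6241 in the sorafenib libraries. The ubiquitin-like Isg15 had 2.28, 4.60, 3.71 and 6.99 normalized counts with DMSO and 92.5, 103, 103 and 85.7 with sorafenib, and the RNA-binding Ifit3 3.42, 0.919, 4.63 and 2.00 and 37.2, 34.8, 30.81 and 58.2. Neither overlapped (4.40 ± 0.23 and 3.82 ± 0.35, edgeR FDR 2.2e-22 and 1.2e-13), and the response of Isg15 was higher than at 48 hours (difference 4.65, FDR 1.3e-07). For Ifit3 that difference was 2.04 and did not pass (edgeR FDR 0.0541), but it did in the fit of 15 libraries (1.76, FDR 0.0446). The antiviral radical enzyme Rsad2, viperin, rose from 1.76 ± 1.22 to 39.9 ± 5.55, and the oligoadenylate synthetase-like Oasl1 (4.63) and the mitochondrial Ifi27 (2.80) rose. The transcription factor Irf1 (-0.50), the GTPase Gbp2 (-0.75) and the membrane protein Ifitm3 (-0.91) were lower. Ifitm3, an abundant member, fell from 1397 ± 45.6 to 750 ± 90.6. By the test of the difference 15 genes had a higher response at 7 days and 3 a lower one. When only genes with at least 10 counts in each of the 8 libraries were kept, 10 were called higher and the median was 0.69, as fewer members pass that filter.

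The promoters of Rsad2 (chr12:26456453-26456702) and Isg15 (chr4:156200819-156201068), both on the − strand in RefSeq GRCm38.p6, are shown because these members rose most among those that reached a mean of 20 normalized counts and held the interferon-stimulated response element, searched as GAAA, any 2 bases and GAAA again on both strands and set in capitals in the 250 bases before the start.
Rsad2: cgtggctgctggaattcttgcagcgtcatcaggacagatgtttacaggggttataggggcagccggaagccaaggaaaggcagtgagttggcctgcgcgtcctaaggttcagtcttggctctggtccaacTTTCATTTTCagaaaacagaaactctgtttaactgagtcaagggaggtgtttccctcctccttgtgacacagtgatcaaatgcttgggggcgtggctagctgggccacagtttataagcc
Isg15: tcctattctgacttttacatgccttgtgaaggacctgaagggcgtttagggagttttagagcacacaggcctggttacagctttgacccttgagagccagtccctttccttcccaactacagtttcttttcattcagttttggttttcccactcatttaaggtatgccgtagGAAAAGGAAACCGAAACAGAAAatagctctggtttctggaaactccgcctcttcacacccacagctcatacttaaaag
The element was in 9 of 22 matched members (40.9%), against 3.04% of all promoters, and overlapping matches were counted as 1 promoter.

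**Figure D5:**
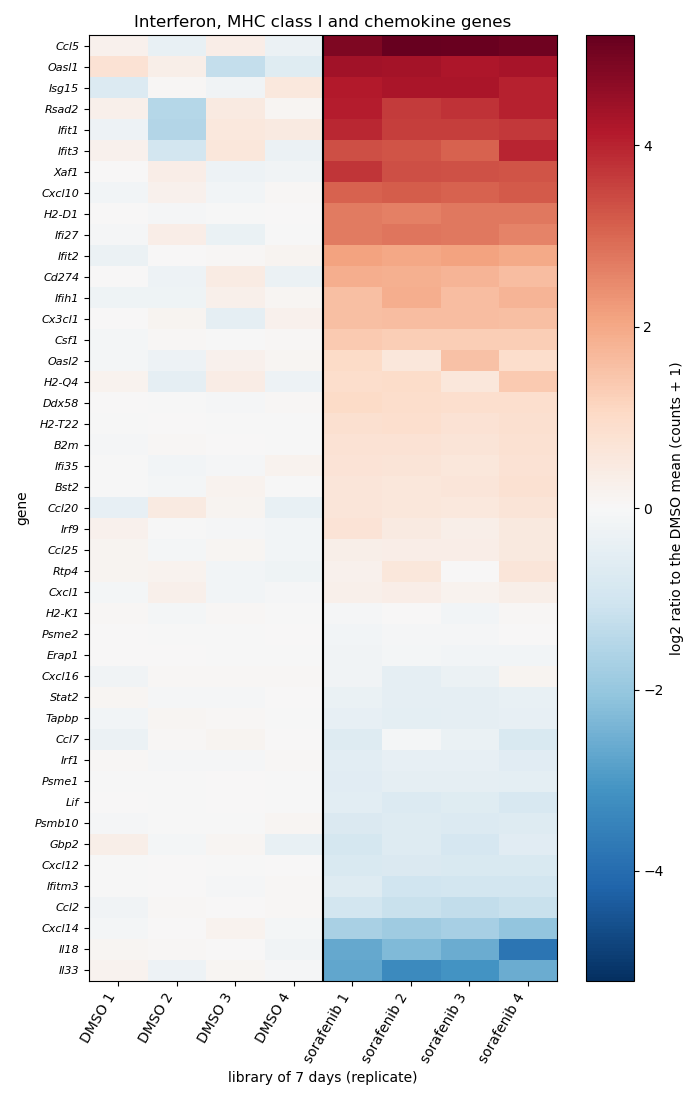
Log2 ratio of the normalized count (plus 1) in each library of 7 days to the mean of the DMSO libraries, for the interferon, MHC class I and chemokine genes whose mean reached 20 normalized counts. Ccl5, Isg15 and Oasl1 are high in all 4 sorafenib libraries and Il33 and Il18 low.

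Of 17 MHC class I genes 7 were higher (41.2%) and 4 lower (23.5%), against 31.5% and 30.6% of all tested genes. Their median was 0.60, and -0.01 when each library had to hold at least 10 counts. H2-D1, a class I heavy chain, had 110.5, 106, 109 and 112 and 719.6, 688, 740.4 and 749 (2.73 ± 0.07), above DMSO in each library, and the light chain B2m went from 2155 ± 68.97 to 3626 ± 115, while H2-K1 was at -0.03 and the loading factor Tapbp fell (-0.46). Class I genes are close copies of each other, and reads may be split between them. Cd274, PD-L1, rose from 19.97 ± 5.02 to 71.6 ± 5.92. Of 24 chemokines and cytokines 9 were higher and 9 lower (median -0.32, and 0.04 without DMSO replicate 4). Ccl5 had 3.42, 1.84, 3.71 and 2.00 with DMSO and 108, 138, 131 and 126 with sorafenib and Cxcl10 27.3, 34.9, 26.9 and 30.9 and 261, 273, 259 and 282, 2 T cell attractants that are also interferon targets. Their groups were far apart (5.48 ± 0.24 and 3.15 ± 0.12), whereas the alarmin Il33 (-2.97) and Il18 (-2.82) fell.

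Among drug transporters 6 of 14 tested genes were higher and 1 lower (median 0.31). Abcc4, the export pump MRP4, had 1189, 1327, 1288 and 1307 and 4566, 4655, 4533 and 4382 (1.83 ± 0.03), Abcc5 rose by 0.63 and Abcc1 by 0.43, and Abcg2, which exports many kinase inhibitors, fell from 2275 ± 132 to 1478 ± 36.4. Of 34 tested genes of drug metabolism 13 were lower and 8 higher. The cytochrome P450 Cyp2s1 fell from 3126 ± 93.5 to 449.9 ± 18.2 and the aryl hydrocarbon receptor Ahr from 3058 ± 114 to 689 ± 41.7, while the epoxide hydrolase Ephx1 rose from 126 ± 22.5 to 387 ± 25.4. Circadian clock genes were higher in 11 and lower in 6 of 19 (median 0.80, -0.24 at 48 hours, and 0.20 at 7 days when each library had to hold at least 10 counts). The repressor Ciart had 148, 104, 107 and 94.8 with DMSO and 654, 603, 582 and 628 with sorafenib, higher in every library (2.45 ± 0.08) and more so than at 48 hours (difference 1.71, edgeR FDR 2.8e-08). The activator Arntl, BMAL1 (1.36), Per2 (1.30) and Nfil3 (2.00) rose, Hlf (-3.44), Per3 (-1.57) and Dbp (-0.84) fell, and the hour of collection is not given in the sources used here. Of 15 DNA methylation and Polycomb genes 10 were lower and 3 higher. Lower were, among others, the de novo methyltransferases Dnmt3b, from 392.4 ± 14.4 to 135 ± 12.6, and Dnmt3a (-0.85) and the demethylase Tet1 (-1.25), and Dnmt1, which maintains methylation, was at 0.08.

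Gene families were also compared without a list, by the letters that their symbols share, over the 323 such stems with at least 6 genes whose mean reached 20 normalized counts. The lowest medians belonged to Fgf (-1.83, 6 of 8 lower), Epha (-1.10), Krt (-1.01, 7 of 8 lower), Fzd (-0.90, 8 of 9 lower) and Igfbp (-0.79). Besides the members already named these included Fgf9 (-4.46), the ephrin receptor Epha3 (-2.27), the basal keratins Krt14 (-1.30) and Krt15 (-6.23) and the Wnt receptors Fzd4 (-1.50) and Fzd9 (-1.41). The highest medians belonged to Serpinb (2.01, 5 of 6 higher), Ifi (1.64), Lgals (1.54, 6 of 8 higher), Anxa (1.03, 9 of 10 higher) and Cacna (1.02). The galectin Lgals3 had 285, 358, 314 and 352 with DMSO and 5902, 5443, 5437 and 5483 with sorafenib (4.08 ± 0.04), with no overlap. The intracellular serpin Serpinb9b, an inhibitor of granzyme-like proteases, rose from 21.3 ± 3.35 to 1352 ± 103, the annexin Anxa8 by 1.57, and the calcium channel subunit Cacna1a by 2.02, while the channels Cacna1g (-5.11) and Cacna1h (-3.54) fell. Members of one stem can be close copies that share reads, as in Serpinb and Ifi, and the stems were ranked by the values given, so their order is a description.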

How the data were processed

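RNA of p53-/-; Myc hepatoblasts was sequenced from a stranded mRNA library kit. The authors deposited 1 table of raw read counts per gene for 16 libraries. The submitters' processing notes name STAR 2.7.1a, featureCounts 2.0.6 of Subread, DESeq2 1.40.2 and the mouse build GRCm39. The strand setting of the counting is not given in the sources used here, so overlapping and antisense genes, and families with near-identical copies, are uncertain.

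Genes with at least 10 counts over the 16 libraries were kept (20444 of 40840, so 20396 were removed). The 8 libraries of 7 days were fitted with edgeR 4.0.16 (R 4.3.3, TMM normalization, quasi-likelihood test, 6 residual degrees of freedom before moderation, Benjamini-Hochberg FDR under 0.05 over all tested genes). The difference between the time points was the interaction term of a fit of 16 libraries. Alternatives used DESeq2 1.42.0, limma 3.58.1 voom, other scalings and filters, a replicate block and each library left out. The scripts were tested on simulated data.

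The members and gene lists were chosen with earlier results of these data known. Named are the 15 largest changes each way among genes without overlap whose mean reached 100 normalized counts, up to 4 members each way per list whose mean reached 20, any member of a list of 20 or fewer, the genes that define the line, and up to 3 members of the symbol stems with the 5 highest and 5 lowest medians. Wt1, Upk3b, Acat3 and Pfkl were named outside this rule, after their values were seen. Same-numbered replicates were not treated as pairs. Promoters came from RefSeq (GRCm38.p6), matched by symbol, and 10 motifs were searched in 57 lists, and the pairs given were chosen after the shares of all 570 pairs were seen. Promoters on chromosome 18 were left out when those to show were chosen. Shares of all promoters include genes that were not tested. Over the tested genes matched by symbol the shares were 35.1% for CCAAT, 11.8% for TTTGAA, 7.58% for CACGTG and 1.1% for TCACNCCAC. They were 2.37% for TGATGNAA, 2.57% for the interferon element, and 11.4% each for TGACNNNGC and GGAATG. Depth limits genes near the floor of 3 counts, and calls depended on abundance above it as well. Of genes whose mean reached 100 normalized counts 84.2% were called, against 62.1% of all tested genes. Counting intervals are exact, at 95%, and cover counting error only. Mitochondrially encoded subunits were not analysed here, and some genes are not reported here.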

Additional observations from a re-analysis of the deposited data

Results flagged for a closer look

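In each group of 4 libraries, the library farthest from the others was compared with the range of the group by Dixon's ratio, which by chance marks about 1 group in 20. Among named genes it marked 29 of 514 groups, 5.64%. In DMSO replicate 1 the normalized count stood apart for Apoe (1825 against 1544 to 1583), Bnip3 (286 against 171 to 183), Btg2 (1702 against 1549.7 to 1559.8), Col6a2 (12326 against 11076 to 11269), Gsta4 (703 against 595 to 607), Igfbp3 (159 against 209 to 216), Lonp1 (3994 against 4131 to 4158), Pfkl (2172 against 1545 to 1583) and Slc39a4 (81.99 against 59.7 to 61.9). In DMSO replicate 2 the normalized count stood apart for Slc39a10 (9918 against 9334 to 9420.1) and Sox9 (404 against 363 to 364). In DMSO replicate 3 the normalized count stood apart for Cebpb (2045 against 1821 to 1859), Dbp (53.7 against 72.6 to 74.02) and Hk1 (581 against 538 to 545). In DMSO replicate 4 the normalized count stood apart for Fosl1 (66.9 against 47.8 to 50.02). In sorafenib replicate 1 the normalized count stood apart for Fgf21 (21.6 against 33.6 to 34.8), Lgals3 (5902 against 5437 to 5483), Nars (23545 against 23356 to 23375), Nop16 (1510.1 against 1659 to 1686) and Trp53 (2975 against 2654 to 2704). In sorafenib replicate 2 the normalized count stood apart for Ldhb (225 against 247 to 251) and Tgfa (132 against 110.0 to 113). In sorafenib replicate 3 the normalized count stood apart for Bcl2l1 (1188 against 1136 to 1144), Egfr (2523 against 2355 to 2382), Foxa2 (937 against 918 to 919), Snai2 (1227 against 1163 to 1172) and Tm4sf5 (0.934 against 0 in each other library). In sorafenib replicate 4 the normalized count stood apart for Fgf8 (1.06 against 0 in each other library) and Itpr2 (709 against 661 to 669). In DMSO replicate 4 the ribosomal RNA locus took 3.04% of the counts, against 0.29 to 0.406% in the other DMSO libraries, and the 10 genes with the most counts took 6.26%, against 3.83 to 3.87%. No cause was tested for any of these.

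Of the 13 genes whose changes at 7 days and 48 hours are compared in the text, 12 differed by the interaction term of edgeR's quasi-likelihood test. On the log2 scale, as the change at 7 days minus that at 48 hours, it was lower for H19 (-3.43, FDR 2.4e-16), Ccn2 (-3.37, FDR 8.2e-16), Ankrd1 (-3.31, FDR 2.4e-11), Mycn (-3.16, FDR 3.3e-15), Fgf21 (-2.96, FDR 1.1e-05) and Car6 (-2.07, FDR 0.00011), and higher for Vegfa (1.40, FDR 2.8e-07), Mt1 (1.43, FDR 8.2e-08), Ciart (1.71, FDR 2.8e-08), Pfkl (2.36, FDR 2.9e-12), Bnip3 (3.84, FDR 8.8e-13) and Isg15 (4.65, FDR 1.3e-07).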

How the results depend on the processing

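The number of genes called at 7 days stayed between 10249 and 12895 under every alternative fit, against 12693, and fell to 4338 (2551 higher and 1787 lower) when a log2 fold change of 1 or more, up or down, was also asked for. Leaving out 1 library at a time gave 12192 to 12498 genes (6115 to 6283 higher, 6007 to 6238 lower) and 7062 to 8759 with a different response at 7 days and 48 hours, the highest without sorafenib replicate 2 of 48 hours and the others at most 7481. Correlations of deviations from the group means ran from -0.003 to 0.130 for same-numbered replicates and from -0.182 to 0.128 for the others. With 4 libraries per group these values cannot decide whether the samples were paired. A replicate block gave 12437 genes, 6271 higher and 6166 lower, and 6987 with a different response. Of 57 gene lists 51 kept their count within 1.5 times under all alternatives. Sterol efflux and LXR genes called lower numbered 3, not 5, with DESeq2 and with at least 10 counts in each library, and 3 to 5 when a library was left out, and without sorafenib replicate 2 more of them were higher than lower. With the filter of 10 counts in each library, fewer genes were tested, and 10 interferon-stimulated genes and 5 chemokines and cytokines were higher, 2 hepatocyte genes and 5 drug enzymes lower, the last then fewer than those higher. Endothelial markers called higher numbered 1, not 2, with DESeq2 and with that filter, and 1 to 2 when a library was left out, namely DMSO or sorafenib replicate 4. Over all alternatives 17 lists had a median that moved by over 0.1 on the log2 scale, by at most 1.99 (endothelial markers with that filter), and 11 lists did without the filters, by at most 0.379. Of 257 named genes 254 stayed on their side of the threshold, the others being Afp, Mcl1 and Pfkl.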
